A study of Mus musculus with 4 samples.

Results

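Of 10 well-known imprinted genes of the mouse that were looked for by symbol, 6 were found among the 8699 genes listed in every table: Igf2r, Impact, Grb10, Gnas, Meg3 and Sgce. Peg3, Mest, Snrpn and Zrsr1 were not analysed here. They were taken by name, with earlier results of these data known. RNA was sequenced from spermatozoa of the cauda epididymis, taken from adult mice of the inbred strain C57BL/6J that were about 11 weeks old. The tail end of the epididymis stores mature sperm, and the sperm were pressed out of it through a small cut. No step to remove other cells is described in the labels. The saline group and the nicotine group held 2 libraries each. Nicotine is the main alkaloid of tobacco, and the sources used here give no dose, route or duration. Nothing in the labels ties the 2 libraries of a group to separate animals. The p-values therefore rest on the scatter among these 4 samples alone, and that scatter may be technical.

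An imprinted gene is expressed mainly from the copy inherited from one parent. The parental copies are told apart by DNA methylation that is set in the germ line, in most cases in the egg and in a few cases in sperm, as at the region that controls Meg3. Mature sperm transcribe very little, so their RNA is largely left over from earlier germ cell stages, and other cells in a preparation add their own. Igf2r encodes the cation-independent mannose 6-phosphate receptor, which carries lysosomal enzymes to the lysosome and clears the growth factor IGF2, and it is maternally expressed in most mouse tissues. Grb10 encodes an adaptor protein that dampens insulin and IGF receptor signalling, and Meg3 is a maternally expressed long noncoding RNA. Impact and Sgce are paternally expressed; the first encodes a restrainer of the Gcn2 stress kinase and the second encodes epsilon-sarcoglycan, a membrane glycoprotein. Gnas is a complex locus whose best known product is the stimulatory G protein alpha subunit. Reads per gene carry no information on which parental copy they came from, so imprinting itself was not measured.

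The promoters of the 3 genes with the lowest log2 fold changes are printed with their CpG sites, the letters that can carry DNA methylation. Whether these stretches lie in the regions that carry the imprints was not examined. They are taken from RefSeq on GRCm38.p6, run 5′ to 3′ on the strand of the gene over 300 bases around its start, and have every CG in capitals. The Igf2r promoter is on chromosome 17 (chr17:12769657-12769956, minus strand), the Grb10 promoter on chromosome 11 (chr11:12037371-12037670, minus strand) and the Meg3 promoter on chromosome 12 (chr12:109540746-109541045, plus strand).
Igf2r: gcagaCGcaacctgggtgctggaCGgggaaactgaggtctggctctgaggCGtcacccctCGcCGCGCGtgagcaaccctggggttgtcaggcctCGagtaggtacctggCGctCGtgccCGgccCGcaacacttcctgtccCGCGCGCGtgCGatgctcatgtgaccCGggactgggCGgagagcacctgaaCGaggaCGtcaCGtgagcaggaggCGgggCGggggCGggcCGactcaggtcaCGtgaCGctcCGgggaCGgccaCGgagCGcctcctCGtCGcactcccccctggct
Grb10: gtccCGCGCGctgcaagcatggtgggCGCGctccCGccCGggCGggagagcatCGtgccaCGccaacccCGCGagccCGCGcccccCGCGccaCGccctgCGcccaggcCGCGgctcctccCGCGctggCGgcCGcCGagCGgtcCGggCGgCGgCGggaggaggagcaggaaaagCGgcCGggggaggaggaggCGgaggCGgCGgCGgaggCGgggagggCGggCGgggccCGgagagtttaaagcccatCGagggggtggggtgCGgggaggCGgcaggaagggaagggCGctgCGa
Meg3: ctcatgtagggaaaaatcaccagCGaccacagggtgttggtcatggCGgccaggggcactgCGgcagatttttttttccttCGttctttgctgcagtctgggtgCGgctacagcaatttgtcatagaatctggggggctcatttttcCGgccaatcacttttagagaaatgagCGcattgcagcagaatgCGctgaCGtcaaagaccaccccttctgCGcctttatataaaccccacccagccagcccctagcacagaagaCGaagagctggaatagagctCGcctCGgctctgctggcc
The stretches hold 34 CG in Igf2r, 45 in Grb10 and 13 in Meg3, against a median of 7 over 32851 RefSeq promoters of the same length. Fewer CG were found in 92.3%, 98.1% and 62.1% of those promoters, in the same order. The hexamer TGCCGC, the core of the site bound by the imprint-keeping protein ZFP57, was searched on both strands and occurred 0 times in Igf2r, once in Grb10 and once in Meg3, while 11.6% of all promoters held it. CACGTG, an E-box, occurred at 2 places in Igf2r and at 0 in the others (7.15% of all promoters). GGGCGG, a GC box, occurred at 3, 5 and 0 places (35.7% of all promoters). Overlaps of the last motif with itself or the others were not removed. These counts describe letters only, and no methylation was measured in these libraries. Grb10 and Meg3 each have a further promoter in the same RefSeq table, and Gnas has 4, which are not printed. The further promoter of Grb10 held 9 CG and that of Meg3 held 1. Fewer CG were found in 54.2% and 5.43% of all promoters, and TGCCGC occurred 0 times in both. The counts above thus hold for the printed stretches only.

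The libraries held 3798794 to 5216745 reads on listed genes. Most of these lay on Lars2 and Gm42418, whose share was 74.9% and 75.8% with saline and 90.6% and 77.5% with nicotine (replicates 1 and 2 in turn). Nicotine replicate 1 stood apart, with 358477 reads outside this pair of genes against 931578 to 1176304 in the others, and with a median of 8 reads per gene against 37 to 44. A single read was worth 0.812 CPM there and 0.149 to 0.172 CPM elsewhere. CPM here means counts per 1000000 reads after scaling by TMM, a trimmed mean of ratios between libraries. RPKM, as deposited, divides reads by gene length and by all listed reads, so it also carries the larger share of the pair in nicotine replicate 1.

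The 6 genes together had 402 and 316 reads in saline replicates 1 and 2, 16 in nicotine replicate 1 and 191 in nicotine replicate 2. Relative to 1000000 reads outside that abundant pair this was 401 and 339 with saline and 44.6 and 162 with nicotine. Both nicotine libraries thus lay below both saline libraries in the summed level. With this scaling the median log2 fold change (nicotine over saline) of all tested genes was also negative, at -0.77. The share of all genes lying lower in both nicotine libraries was not computed on this scale.

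Impact had the highest level per deposited length, at 5.61 and 5.37 RPKM with saline and 0.307 and 3.24 RPKM with nicotine (5.49 ± 0.173 and 1.77 ± 2.07, SD, n = 2 each). Igf2r followed with 4.02 ± 0.371 RPKM with saline and 0.760 ± 0.878 with nicotine. Grb10 had 1.36 ± 0.678 and 0.156 ± 0.138 RPKM. In saline these 3 genes did not overlap in RPKM and kept this order in both libraries. The order of the first pair rests on the deposited length of Impact, 3432 bases against an exon union of 5129 in GENCODE M21. With the latter length, tried after seeing the data, Impact had 3.75 and 3.59 RPKM with saline and Igf2r 3.81 and 4.35. Meg3 (0.605 ± 0.572), Sgce (0.550 ± 0.155) and Gnas (0.469 ± 0.189) came last in saline and overlapped each other, and Meg3 also overlapped Grb10. With nicotine Sgce had 0.0248 and 0.452 RPKM, Gnas 0.0235 and 0.308, and Meg3 0.0437 and 0.106. There the ranges of Sgce and Gnas spanned that of Meg3.

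**Figure D1:**
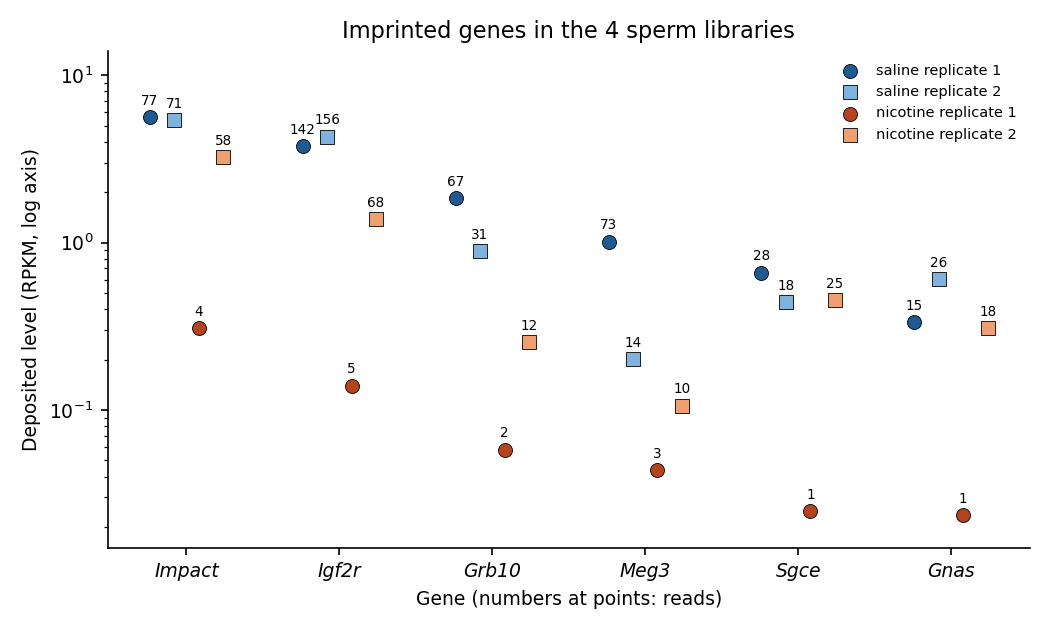
Deposited level of each imprinted gene (RPKM, log axis) in each of the 4 libraries, with the number of reads printed at each point; circles and squares are replicates 1 and 2. Impact and Igf2r lie highest in both saline libraries, and nicotine replicate 1 is the lowest point for every gene, resting on 1 to 5 reads.

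The place of a gene among all listed genes within its own library does not depend on scaling between libraries, though it does on the deposited lengths. Igf2r stood above 66.5% and 71.6% of listed genes by RPKM in the saline libraries, and above 20.1% and 44.4% in nicotine replicates 1 and 2. Grb10 stood above 37.6% and 16.8% with saline and above 8.16% and 4.35% with nicotine. Impact stood above 77.8% and 78.1% with saline and 39.9% and 71.5% with nicotine. Igf2r, Grb10 and Impact thus ranked lower in each nicotine library than in either saline library. The share of all listed genes whose ranks did so was not computed. Of tested genes, 31.0% lay lower in both nicotine libraries in CPM after scaling between libraries, and 64.2% in deposited RPKM. Neither is a share of ranks. Gnas, Meg3 and Sgce stood above at most 16.2% of listed genes in any library, and their ranks overlapped between the groups. Many genes share the same few reads in nicotine replicate 1, so ranks there are coarse.

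Nicotine and saline were compared to ask which sperm RNAs differ after exposure. Of the 6 genes, all of which were tested, 0 were higher and 0 lower by edgeR's quasi-likelihood test at an adjusted p under 0.05, where 8.27% of the 8375 tested genes were higher and 0.931% lower. The count was also 0 by DESeq2 (12.2% of genes higher and 1.08% lower; Gnas had no adjusted p), by limma-voom (9.15% and 0.549%) and by limma on quantile-normalised values (5.71% and 1.07%). At an unadjusted p under 0.05 by edgeR 2 of the 6 were lower, Grb10 and Igf2r, against 7.12% of tested genes lower and 16.6% higher. The median log2 fold change of the 6 was -1.01, while that of all tested genes was -0.14. The sign was negative for all 6 genes, as it was for 55.5% of tested genes. A p above the threshold does not show that a gene was alike in both groups.

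Igf2r (ENSMUSG00000023830) had 142 and 156 reads in saline replicates 1 and 2 and 5 and 68 reads in nicotine replicates 1 and 2. Relative to 1000000 listed reads this was 35.5 (exact Clopper-Pearson 95% interval 29.9 to 41.8), 40.5 (34.4 to 47.3), 1.32 (0.427 to 3.07) and 13.03 (10.1 to 16.5). The intervals of the saline libraries overlapped each other, and those of the nicotine libraries did not. After TMM scaling the libraries had 21.1, 24.6, 4.06 and 11.7 CPM. Both nicotine values lay below both saline values, as they did for 3 of the 6 genes (Igf2r, Impact and Grb10) and for 31.0% of tested genes, while 27.4% lay above in both. In RPKM this held for 5 of the 6, all but Sgce, and for 64.2% of tested genes, with 6.99% above. The log2 fold change was -1.40 ± 0.55 (SE), with an unadjusted p = 0.0275 and an adjusted p = 0.146 by edgeR. Of all tested genes 7.45% had a lower log2 fold change. The adjusted p was 0.00593 without nicotine replicate 2, where the log2 fold change was -2.42 and 9.67% of genes were called lower and 17.8% higher, and it was 0.165 without nicotine replicate 1, where the log2 fold change was -0.95. It was 0.480 and 0.595 without saline replicates 1 and 2. With the replicate number as a block it was 0.0310 (log2 fold change -1.54), in a fit that called 3.33% of genes lower and 12.9% higher. Airn, the antisense RNA that silences the paternal Igf2r copy, overlaps the gene but shares no exon base with it in GENCODE M21. Airn itself was not analysed here, and whether the counting used strand is not given in the sources used here.

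Grb10 (ENSMUSG00000020176) had 67 and 31 reads with saline and 2 and 12 reads with nicotine. Its levels were 9.98 and 4.88 CPM with saline and 1.62 and 2.07 CPM with nicotine. The groups did not overlap, but the saline libraries lay far apart. The log2 fold change was -1.93 ± 0.67, the lowest of the 6 (unadjusted p = 0.0156 and adjusted p = 0.103 by edgeR). Over the 12 alternative settings it ran from -3.07 to -1.36, and no adjusted p was under 0.0722.

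Meg3 (ENSMUSG00000021268) had 73 reads in saline replicate 1 and 14 in saline replicate 2, and 3 and 10 in the nicotine libraries. The level of 10.9 CPM in saline replicate 1 stood above the other 3 libraries, which had 2.21, 2.43 and 1.72 CPM in the order given. The groups overlapped after TMM scaling. Its log2 fold change of -1.75 ± 0.85 (adjusted p = 0.241, edgeR) became -0.19 without saline replicate 1 and -2.48 without saline replicate 2. Rian, a noncoding RNA of the same imprinted cluster, likewise had 57 and 7 reads with saline and 3 and 6 with nicotine, and too few to be tested. Markers of connective tissue, smooth muscle and vessels were also higher in saline replicate 1, as given further on, and their part in these values was not tested.

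Impact (ENSMUSG00000024423) had 77 and 71 reads with saline and 4 and 58 with nicotine. This was 11.5 and 11.2 CPM against 3.25 and 10.003 CPM. Nicotine replicate 2 lay close to the saline libraries and nicotine replicate 1 far below them. The log2 fold change was -0.62 ± 0.56 (adjusted p = 0.548, edgeR). It was -0.16 without nicotine replicate 1 and -1.72 without nicotine replicate 2.

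Gnas (ENSMUSG00000027523) had 15 and 26 reads with saline and 1 and 18 with nicotine, and Sgce (ENSMUSG00000004631) had 28 and 18 against 1 and 25. On the CPM scale the groups overlapped for both genes. The log2 fold changes were -0.40 ± 0.72 for Gnas and -0.15 ± 0.71 for Sgce (adjusted p = 0.790 and 0.922 by edgeR). That of Sgce changed sign to 0.32 without nicotine replicate 1. With so few reads only large differences could be seen in these genes. In GENCODE M21 Gnas shares exon bases with the antisense genes Nespas and Gm20721, and Meg3 with Gm26906. Reads on the shared bases cannot be told apart unless strand was used. On the same strand 3 genes overlap Gnas, 4 overlap Meg3 and 1 overlaps Impact, where strand would not help. Whether those share exon bases was not examined.

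**Figure D2:**
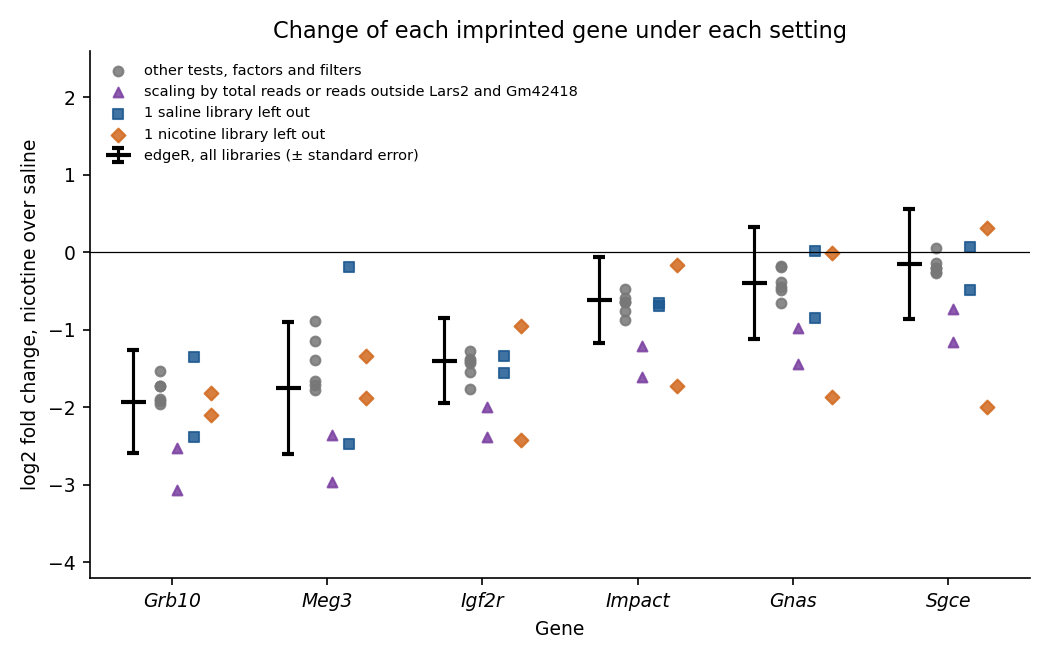
Log2 fold change (nicotine over saline) of each imprinted gene. Black bars are the edgeR estimate ± its standard error with all libraries, and the symbols are the 12 alternatives. Grb10, Meg3, Igf2r and Impact stayed below 0 under every alternative, whereas Gnas reached 0.017 and Sgce 0.32.

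Within the 6 genes the shares of reads varied from library to library. Igf2r took 35.3% and 49.4% of their reads with saline and 31.3% and 35.6% with nicotine. Meg3 took 18.2% in saline replicate 1 and 18.8% in nicotine replicate 1, but 4.43% and 5.24% in the replicates numbered 2. Impact took 19.2% and 22.5% with saline and 25.0% and 30.4% with nicotine. Nicotine replicate 1 enters these shares with only 16 reads.

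A wider list of imprinted genes was set beside the 6. It named 62 further genes, of which 24 were listed in the tables and 23 were tested. By edgeR 0 of the 23 were higher and 0 lower, with a median log2 fold change of -0.067 against -0.14 for all tested genes. At an unadjusted p under 0.05 4 were higher and 2 lower, shares near the 16.6% and 7.12% of all tested genes. Under DESeq2 and under edgeR with RLE factors 1 was higher, Sfmbt2, where DESeq2 called 12.2% of all genes higher. Of 11 tested genes listed as paternally expressed 7 had a negative log2 fold change (median -0.22), and of 12 listed as maternally expressed 5 did (median 0.15). Whether these genes are imprinted in the cells sampled was not examined.

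The 2 lower at an unadjusted p under 0.05 were Kcnq1ot1 and Dcn. Kcnq1ot1, the long antisense RNA that silences genes of the Kcnq1 domain, had 123 and 141 reads with saline and 3 and 47 with nicotine. Its log2 fold change was -1.75 ± 0.57 (adjusted p = 0.0808, edgeR), and like Igf2r it was lowest in nicotine replicate 1 and intermediate in nicotine replicate 2. Dcn, which encodes the matrix proteoglycan decorin and is also in the connective tissue marker list, was the most abundant of these genes per length, with 159 ± 146 RPKM with saline and 19.3 ± 13.9 with nicotine. It had 2187 reads in saline replicate 1 and 449 in saline replicate 2, and a log2 fold change of -1.78 ± 0.68 (adjusted p = 0.136, edgeR).

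The genes with positive values at an unadjusted p under 0.05 were Sfmbt2, Zdbf2, Pon2 and Trappc9. Sfmbt2, a Polycomb-group gene, had 70 and 56 reads with saline and 109 and 113 with nicotine, in spite of the shallower nicotine replicate 1. Its levels were 10.4 and 8.82 CPM with saline and 88.5 and 19.5 CPM with nicotine, so the groups did not overlap and the nicotine libraries lay far apart. Its log2 fold change was 2.45 ± 0.68 (adjusted p = 0.0508, edgeR). Zdbf2 had 2.98 and 2.68 CPM with saline and 8.93 and 8.28 CPM with nicotine, with close replicates in both groups, and a log2 fold change of 1.59 ± 0.55 (adjusted p = 0.104, edgeR). Trappc9, which encodes a subunit of a vesicle tethering complex, had 10.1 and 8.03 CPM against 38.1 and 13.97. Pon2, a paraoxonase gene, had 4.91 and 3.15 CPM against 17.0 and 8.97.

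The 4 highest levels per length in each parental class also took in Cd81, Slc38a4, Nap1l4, Smoc1, Copg2 and Rasgrf1. Rasgrf1, one of the few genes whose imprint is set by methylation in sperm, had 13.1 and 22.5 CPM with saline and 5.68 and 11.9 CPM with nicotine, without overlap (log2 fold change -0.92 ± 0.54, adjusted p = 0.331, edgeR). Igf2, the growth factor that Igf2r binds, had 21 and 14 reads with saline and 7 and 11 with nicotine. Its log2 fold change was 0.24 ± 0.74 (adjusted p = 0.882, edgeR). Smoc1 and Slc38a4 had -0.79 ± 0.59 and -0.22 ± 0.63 on the same scale, and Cd81, Nap1l4 and Copg2 lay between -0.84 and 0.27.

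**Figure D3:**
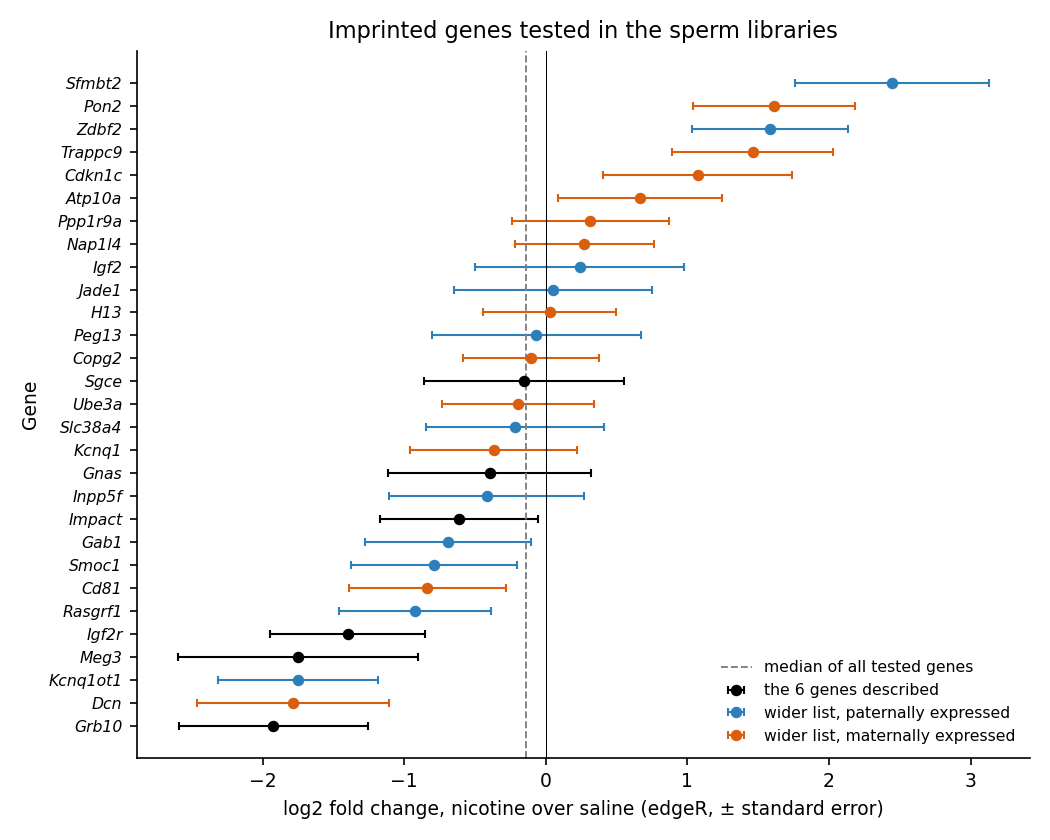
Log2 fold change (nicotine over saline, edgeR) ± standard error for the 6 genes (black) and the 23 tested genes of the wider list. Blue marks genes listed as paternally expressed and orange those listed as maternally expressed. The dashed line is the median of all tested genes at -0.14. The values run from -1.93 (Grb10) to 2.45 (Sfmbt2), with both parental classes on each side of the line.

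Genes near the 6 in the genome were looked at for shared differences along a locus. Of 14 listed neighbours in the fixed list (Copg2, Klhdc10 and Ube3a neighbour Mest and Snrpn) 13 were tested, with 0 higher and 0 lower by edgeR, 1 lower at an unadjusted p under 0.05 (7.12% of all tested genes), and a median log2 fold change of -0.11. On the Igf2r side of chromosome 17, the chaperonin gene Tcp1 had 0.48 ± 0.52, Acat2 -0.071 ± 0.50, Sod2 -0.28 ± 0.49 and Wtap -0.23 ± 0.53 on the log2 scale. These 4 neighbours overlapped between the groups in CPM. Map3k4, a kinase gene outside the fixed list and the nearest listed gene on the other side of Igf2r, did not overlap, with 7.15 and 4.25 CPM with saline and 3.25 and 1.03 with nicotine (log2 fold change -1.77 ± 0.76, adjusted p = 0.187, edgeR). Map3k4, with 4 and 6 reads in nicotine replicates 1 and 2, thus had a value like that of Igf2r. The 4 neighbours of the fixed list had values unlike it. Near Gnas, the syntaxin gene Stx16 had 5.81 and 5.67 CPM with saline and 1.62 and 2.07 with nicotine (log2 fold change -1.55 ± 0.63, adjusted p = 0.163, edgeR), and Npepl1 had 0.73 ± 0.54. Nelfcd, which encodes a subunit of a complex that pauses RNA polymerase II, is the nearest listed gene on the other side of Gnas and also outside the fixed list. It had 6.70 and 4.41 CPM with saline and 43.0 and 10.9 with nicotine (2.20 ± 0.67, adjusted p = 0.0677, edgeR). Near Impact, Osbpl1a had 1.10 ± 0.58 and Ss18, outside the list, 0.68 ± 0.54. Near Grb10, Cobl had 0.66 ± 0.67 and Ikzf1, outside the list, -0.25 ± 0.82. Near Meg3, Wdr25, outside the list, had -0.22 ± 0.64. Near Sgce, Casd1 had -0.13 ± 0.75 and Ppp1r9a 0.32 ± 0.56.

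Igf2r works in a sorting pathway whose other genes were also looked at. Of 34 genes of mannose 6-phosphate sorting and IGF signalling, 29 were listed and tested. By edgeR 0 were higher and 0 lower, 3 were lower and 2 higher at an unadjusted p under 0.05 (7.12% and 16.6% of all tested genes), and the median log2 fold change was -0.33. M6pr, which encodes the smaller, cation-dependent mannose 6-phosphate receptor and is not imprinted, had 14.6 and 18.6 CPM with saline and 4.87 and 15.9 with nicotine. Its groups overlapped, with a log2 fold change of -0.56 ± 0.56 (adjusted p = 0.596, edgeR). The difference between the 2 receptors was not tested. Gnptg, a subunit of the enzyme that makes the mannose 6-phosphate tag, had 1.57 ± 0.65. The retromer gene Vps35 had -0.25 ± 0.57, and the sorting nexin Snx1, which returns receptors from endosomes, had 0.14 ± 0.46. Another sorting nexin gene, Snx5, had 0.019 ± 0.50.

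On the signalling side, Igf1r, the main IGF receptor, had 170 and 220 reads with saline and 10 and 82 with nicotine. Its levels of 25.3 and 34.7 CPM with saline and 8.12 and 14.1 CPM with nicotine did not overlap, and its log2 fold change was -1.37 ± 0.51 (adjusted p = 0.123, edgeR), close to that of Igf2r. Irs2, an adaptor of the insulin and IGF receptors, had 6.40 and 8.51 CPM against 0.812 and 1.72 (-2.32 ± 0.66, adjusted p = 0.0532, edgeR). Igfbp5, an IGF binding protein, had -1.67 ± 0.66, and saline replicate 1 had 377 of its reads against 92, 16 and 56 in the other libraries. Igf2bp3, which binds IGF2 messenger RNA, had 1.88 ± 0.67. The list's highest levels per length were those of the binding proteins Igfbp7 (51.4 ± 14.5 RPKM with saline and 12.5 ± 12.8 with nicotine) and Igfbp6 (11.4 ± 14.4 and 5.31 ± 0.193).

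Genes that set or keep imprints were also listed in part, with 14 of 22 in the tables. By edgeR 0 of the 14 were higher and 0 lower, 1 was higher and 1 lower at an unadjusted p under 0.05 (16.6% and 7.12% of all tested genes), and the median log2 fold change was -0.42. Dnmt1, the methyltransferase that copies methylation at replication, had 10.3 and 8.98 CPM with saline and 3.25 and 3.79 with nicotine, a log2 fold change of -1.41 ± 0.55 (adjusted p = 0.144, edgeR). Ehmt2, a histone H3 lysine methyltransferase, had 31.3 and 30.2 CPM with saline and 83.6 and 65.0 with nicotine (1.27 ± 0.46, adjusted p = 0.119). Both had groups that did not overlap, in opposite directions. Of the 14 genes 6 lay lower and 4 higher in both nicotine libraries than in both saline libraries. Of all tested genes 31.0% lay lower and 27.4% higher in this way. Trim28, the cofactor through which ZFP57 acts, had -0.39 ± 0.51, Zfp445, another imprint-keeping zinc finger gene, had -0.63 ± 0.58, and the insulator gene Ctcf had 0.56 ± 0.47.

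The labelled cell type and other cells were checked by markers. In bulk RNA, fewer cells of a type and less RNA per cell cannot be told apart. All 20 sperm and spermatid markers were listed, and 14 of the 19 tested were higher with nicotine by edgeR and 0 lower, against 8.27% and 0.931% of all tested genes. Their share of reads other than those of Lars2 and Gm42418 was 2.06% and 1.79% with saline and 5.91% and 5.62% with nicotine. Markers of connective tissue, smooth muscle and vessels (19 of 21 listed) held 3.25% and 1.57% with saline and 0.251% and 0.805% with nicotine, and 3 of 17 tested (Col1a1, Col3a1 and Col5a2) were lower. Leukocyte markers (16 of 20 listed) held 0.144% and 0.169% with saline and 0.0404% and 0.0471% with nicotine, and 1 of 16 tested, Cd14, was lower. Cd14 and Cd68 had 0 reads in nicotine replicate 1, as had Lum of the connective list. Epididymal epithelium markers (12 of 22 listed, Spink11 at 0 in nicotine replicate 1) held 1.13% and 3.31% with saline and 0.696% and 2.76% with nicotine, with 0 of 11 tested higher or lower. Erythroid markers (5 of 7 listed) held 0.192% and 0.112% against 0.0332% and 0.199%, and 0 of 14 Sertoli and Leydig cell markers were listed.

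The imprinted genes were set against these marker lists in each library. Igf2r had 6.88 and 9.36 reads per 1000 sperm marker reads with saline and 0.236 and 1.03 with nicotine. Per 1000 connective tissue marker reads it had 4.36 and 10.7 with saline and 5.57 and 7.18 with nicotine, which lay inside the range of the saline libraries. Per 1000 leukocyte marker reads it had 98.5 and 99.0 with saline and 34.5 and 123 with nicotine, the value of 34.5 resting on 5 Igf2r reads. Grb10 had 2.06 and 2.12 reads per 1000 connective tissue marker reads with saline and 2.23 and 1.27 with nicotine, and for Impact these were 2.36 and 4.86 against 4.45 and 6.12. The 6 genes together had 12.3 and 21.6 with saline and 17.8 and 20.2 with nicotine. Relative to connective tissue markers the groups thus overlapped for Igf2r, Grb10, Impact and the 6 together. Relative to leukocyte markers the groups overlapped for each of these as well. Relative to epididymal epithelium markers they did not, with Igf2r at 12.5 and 5.06 reads per 1000 marker reads with saline and 2.003 and 2.10 with nicotine. On the same measure Impact had 6.79 and 2.30 against 1.60 and 1.79, and the 6 together had 35.5 and 10.2 against 6.41 and 5.89. Relative to sperm markers the nicotine libraries also lay below both saline libraries. The marker reads themselves differed between the groups: the sperm share was higher with nicotine, and the connective tissue and leukocyte shares were lower. A gene with an unchanged share would thus also lie lower relative to sperm markers. The connective tissue share differed widely within each group too, which makes overlap likely. The ratios therefore cannot show which cells the reads came from. The share of all genes whose groups overlapped on these ratios was not computed. The part of other cells in the levels of the imprinted genes was not tested.

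**Figure D4:**
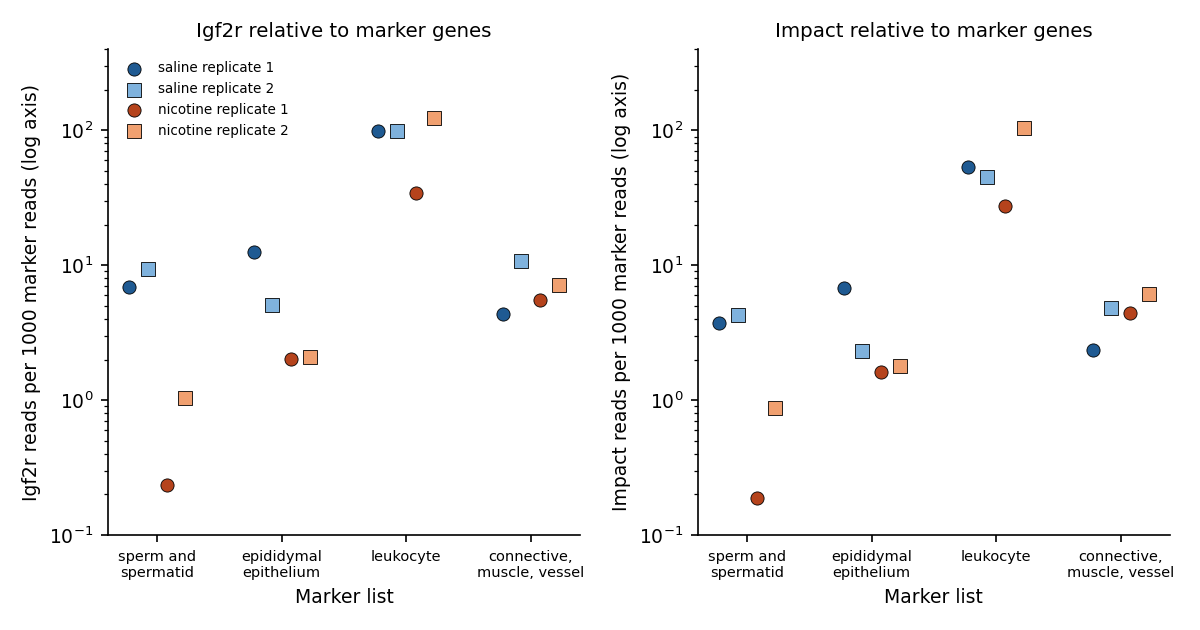
Reads of Igf2r (left) and Impact (right) per 1000 reads of 4 marker lists (log axis) in each library; colours and symbols mark the libraries. Against sperm and epididymal markers the nicotine libraries lie below both saline libraries, with Igf2r at 0.236 and 1.03 against 6.88 and 9.36 for sperm markers. Against leukocyte and connective tissue markers the groups overlap. The shares of the marker reads themselves differed between the groups.

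The 5 genes whose pattern over the 4 libraries was most like that of Igf2r were Rreb1, Ppp1r12c, Slc38a2, Flii and Tmem252. Likeness was the Euclidean distance between log2 CPM values centred on each gene's mean, over 2943 tested genes with a mean CPM within 2-fold of Igf2r. Distances were 0.121 for Rreb1, 0.197 for Ppp1r12c, 0.215 for Slc38a2, and 0.255 for both Flii and Tmem252, against a median of 1.99 over the candidates. Their log2 fold changes ran from -1.38 for Slc38a2 to -1.21 for Tmem252, and none passed the threshold (adjusted p from 0.155 to 0.218, edgeR). Such likeness follows from the choice, since the genes were picked by their pattern in these same libraries. Points in such a comparison share their libraries and depth, and 2.43 CPM in nicotine replicate 1, the value of 4 of the 5 genes, is the level of 3 reads.

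**Figure D5:**
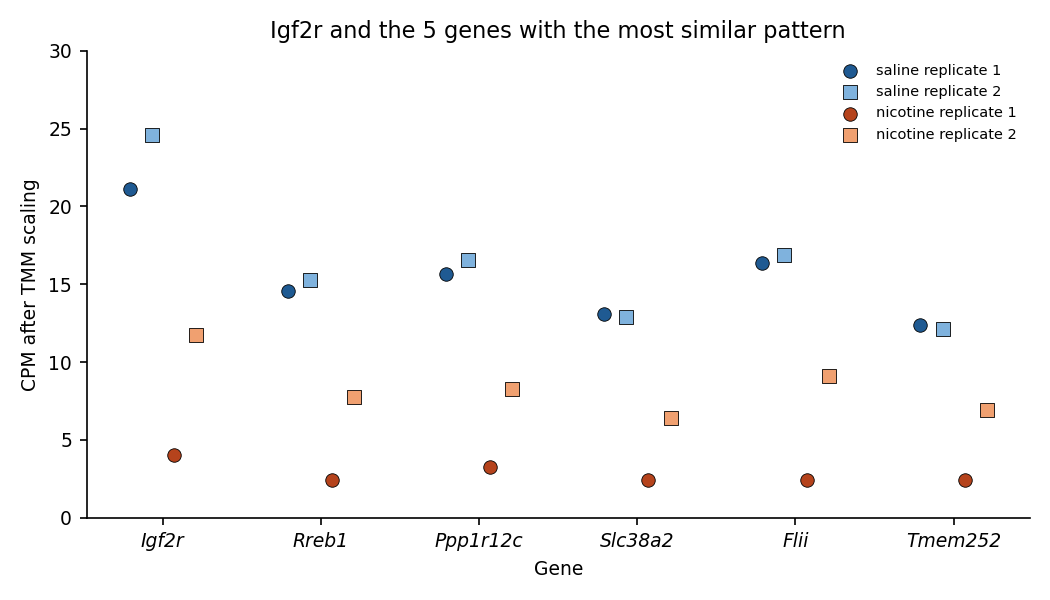
Level (CPM after TMM scaling) of Igf2r and of the 5 tested genes with the most similar centred pattern in each of the 4 libraries. All 6 genes are highest in the saline libraries, intermediate in nicotine replicate 2 and lowest in nicotine replicate 1, where Igf2r has 4.06 CPM. The 5 genes were chosen for this likeness.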

How the data were processed

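RNA of 4 libraries was analysed, 2 from the saline and 2 from the nicotine group. Per the file headers, each deposited table gives a gene length, reads and RPKM per gene. The tools CASAVA and TopHat and the build mm8 appear, with no role stated, per the submitters' processing notes. The sources used here do not give what counted the reads, on which annotation, with or without strand or with what treatment of multiple matches. The read column deposited by the authors is unnormalised and was handled as estimated counts, since a last line without a gene holds a number that is not whole. That line, the factor that turns reads per length into RPKM, was left out and holds no reads. Gene values were whole, so rounding before the test changed nothing. The RPKM values deposited by the authors equal reads over length and listed reads, and served to compare genes. Symbols were matched for 8688 of 8699 IDs, and gene types and overlaps came from GENCODE M21 (GRCm38), whose build differs from mm8. Lengths equalled that annotation's exon union for 70.1% of matched genes.

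The main test was edgeR 4.0.16 (R 4.3.3), a quasi-likelihood test with TMM scaling, filterByExpr at a minimum count of 10 (8375 genes kept, 324 not), group as the only term, and Benjamini-Hochberg adjustment over all tested genes at 0.05. Standard errors are the log2 fold change over the square root of F. Alternatives were DESeq2 1.42.0, limma 3.58.1 (voom or quantile normalisation), other factors or library sizes, no filter, each library left out and the replicate number as a block. Intervals cover counting error only. With 2 libraries per group an exact permutation test could not reach the threshold and was not used. The 6 genes and all lists were chosen with earlier results of these data known. Genes named beside the 6 were any called gene of the imprinted, imprint-keeping and Igf2r pathway lists (none), the 4 per list with the highest mean RPKM, listed neighbours and the 5 most like Igf2r. Igf2, M6pr, Vps35, the called markers, the nearest listed genes outside the neighbour list and the genes with an unadjusted p under 0.05 were named after their values were seen.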

Additional observations from a re-analysis of the deposited data

How the results depend on the processing

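Igf2r, Grb10, Meg3 and Impact kept a negative log2 fold change under all 12 alternatives. Among the alternatives that kept all 4 libraries, Igf2r passed the threshold only with the replicate number as a block. There it had -1.54 (adjusted p = 0.0310, edgeR), and 1 of the 6 genes was lower (3.33% of all genes). Over the fits leaving out 1 library, which leave 1 library in a group, Igf2r ran from -2.42 to -0.95. The cause was not tested. Scaling by total reads and by reads outside Lars2 and Gm42418 moved the median of all genes from -0.14 to -1.28 and -0.77, and that of the 6 genes from -1.01 to -2.00 and -1.61. With 1 library left out Gnas ran from -1.86 to 0.017 and Sgce from -2.00 to 0.32. The reversals were Gnas at 0.017 (saline replicate 2 out) and Sgce at 0.063 (saline replicate 1 out), at 0.32 (nicotine replicate 1 out) and at 0.054 with limma-voom. Of the wider imprinted list, 1 gene was higher with RLE factors and 1 with DESeq2 (Sfmbt2 in both). Over all genes 733 were higher with RLE factors, and 12.2% were higher with DESeq2. With the block 2 of the 23 tested genes of the list were higher and 1 lower, where 12.9% of all tested genes were higher and 3.33% lower. For this list only fits that kept all 4 libraries are counted here. With GENCODE M21 lengths, added after seeing the data, the mean of Impact with saline moved from 5.49 to 3.67 RPKM, below Igf2r at 4.08.

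Over all genes, 693 were higher and 78 lower. With the block these were 1078 and 279, by limma-voom 766 and 46, scaled by total reads 0 and 9, and scaled by reads outside the pair 0 and 0. With 1 library left out 0 to 1515 were higher and 9 to 824 lower. Replicate numbers are only numbers in the labels: the difference between replicates 1 and 2 correlated at 0.173 between the groups over 8375 genes, and with 2 pairs no pairing was concluded. Depth limits Gnas, Sgce, Meg3 and Grb10 most, with 1 to 3 reads in nicotine replicate 1.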
